A study of Rattus norvegicus with 32 samples.

Results

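Mammary gland RNA of 32 virgin female Sprague-Dawley rats, killed 1 at a time along the estrous cycle, was measured on 1 Affymetrix Rat 230 2.0 array per rat. The rats described here are the 8 with the highest and the 8 with the lowest transcript levels of milk protein genes among 31 rats, the array of 40 h having been set aside. They were chosen by these transcript levels alone. Each array was given a milk protein score, the mean over Csn1s1, Csn2, Csn3, Wap and Lalba of the log2 intensity after the gene's own mean over the 31 arrays was subtracted. Each of these genes was read by 1 probe set, that is, by several short oligonucleotides complementary to the transcript. The 8 arrays with the highest scores are called high arrays below, the 8 with the lowest scores low arrays, and the 15 in neither group the arrays between. All rats were untreated, and neither group had been pregnant. The rats were adults with regular 4-day cycles, killed in the daytime. According to the labels the tissue was the fourth glands, stored in an RNA preservative and extracted on a column, whereas the methods describe frozen glands of the left side with the lymph nodes removed and an extraction with an organic reagent and a column. Which of these preparations applied was not settled here.

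Milk protein genes are transcribed in the luminal secretory cells of the mammary alveoli, where prolactin acts through its receptor, the kinase Jak2 and the transcription factors Stat5a and Stat5b, together with Elf5, a transcription factor of alveolar cells. The caseins carry amino acids, calcium and phosphate into milk, Wap is the whey acidic protein of rodent milk, and Lalba, alpha-lactalbumin, is the subunit that turns a galactosyltransferase into lactose synthase. In the virgin gland the alveolar buds are few and sit in a fat pad, and they grow and regress with each cycle.

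The 8 high arrays came from rats killed at 7.5 h on day 1, at 32.8, 35.5, 41.6 and 43 h on day 2, and at 57, 59.8 and 64.2 h on day 3, counting hours from the midnight that opened the cycle. The second day was that of estrus. The 8 low arrays came from 7, 13, 13.2 and 14.6 h on day 1, 31.6 h on day 2, 61.3 h on day 3, and 79.3 and 88.1 h on day 4. Scores of the high arrays ran from 1.16 at 32.8 h to 1.65 at 41.6 h, and those of the low arrays from -1.80 at 13 h to -0.88 at 31.6 h. Just outside the groups lay the array of 62.5 h, with a score of 0.87, below the high arrays, and that of 85.3 h, with a score of -0.85, close to the last of the low arrays. The rats of day 1 had a median score of -0.57, those of day 2 one of 0.97, those of day 3 one of 0.60 and those of day 4 one of -0.78, but every day had rats with scores above and below 0. Day 4 gave no high array, and days 1 to 3 gave both kinds. The clock hour of killing averaged 12.7 h ± 4.38 in the high arrays and 11.5 h ± 3.63 in the low arrays (SD, n = 8 each). Their difference of 1.16 h was smaller than the spread within either group, with p = 0.558 in an exact two-sided permutation test.

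**Figure D1:**
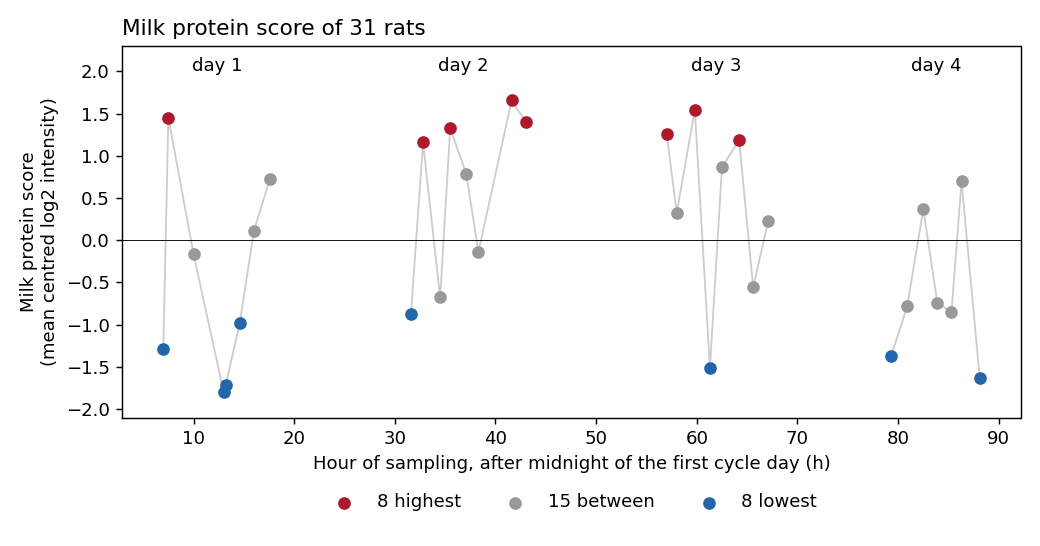
Milk protein score (mean centred log2 intensity of 5 genes, vertical axis) of 31 rats against the hour of killing (horizontal axis), with 1 point per rat and lines joining the rats of a day in order of hour. The 8 high arrays (red) lie on days 1 to 3 and the 8 low arrays (blue) on all 4 days, and rats of nearly the same hour can lie at opposite ends.

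The genes of the score did not vary by the same amount. Csn2, which encodes beta-casein, ran from 11632 to 20839 with a median intensity of 15653 in high arrays and from 169 to 790 with a median of 278 in low arrays. Wap ran from 6516 to 18198 with a median of 10067 in high arrays and from 170 to 429 with a median of 265 in low arrays. For both genes the lowest high array was far above the highest low array. Csn3, kappa-casein, had a median of 20222 (17974 to 23127) in high arrays and of 9129 (6501 to 12577) in low arrays. Csn1s1, alpha-S1-casein, had a median of 27229 (25133 to 30402) in high arrays and of 14704 (12440 to 20417) in low arrays. Lalba had a median of 21689 (18827 to 22866) in high arrays and of 12518 (9827 to 14640) in low arrays. The groups did not overlap for these 3 genes either, all of which entered the score. The log2 difference, high minus low, was 5.59 for Csn2 and 5.41 for Wap, but 1.21 for Csn3, 0.87 for Csn1s1 and 0.78 for Lalba. These differences chose the arrays and carry no test.

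Over the 31 arrays the highest value was 123 times the lowest for Csn2 and 107 times the lowest for Wap, but 3.56 times for Csn3, 2.44 times for Csn1s1 and 2.33 times for Lalba. Csn2 thus supplied 51.5% and Wap 43.9% of the variance summed over the genes of the score, against 2.35% for Csn3, 1.28% for Csn1s1 and 0.978% for Lalba. The order of the arrays is therefore mostly that of Csn2 and Wap. The genes with the small ranges were also those that stayed at high intensity in every rat, and the highest value in the whole table was 37317. Whether the scale of the array limits their range was not tested. The 5 genes still moved together. Pearson's r between pairs of them ran from 0.82 to 0.95 over the 31 arrays, which is a description, since each pair shares the array and the rat.

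**Figure D2:**
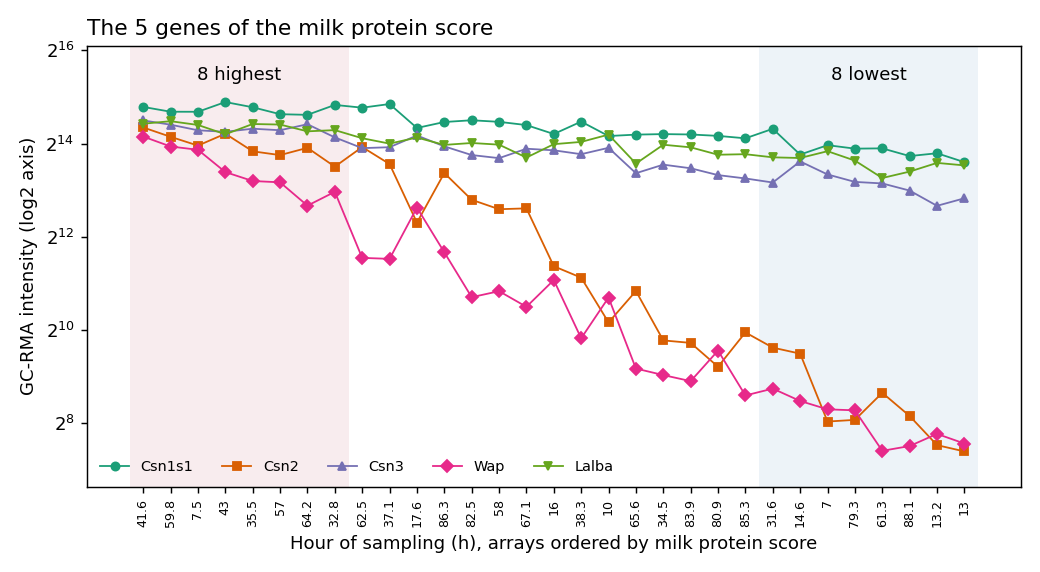
GC-RMA intensity (log2 axis) of the 5 genes of the score in 31 rats, ordered from the highest score on the left to the lowest on the right, with the hour of each rat on the horizontal axis. Csn2 and Wap spread over 123-fold and 107-fold ranges, whereas Csn1s1, Csn3 and Lalba stay above 6501 in every rat.

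The promoters of Csn2, Csn1s1 and Glycam1 are shown because they hold a match to the STAT5 consensus, and that of Wap because it varied as much as Csn2 and holds none. The motif searched was TTCNNNGAA, which reads the same on both strands, in the 250 bases before the start of the gene in the RefSeq annotation of GRCr8. The sequences below run 5′ to 3′ on the strand of the gene, with the match in capitals. Csn2 lies on the plus strand at chr14:20601574-20601823, Csn1s1 on the minus strand at chr14:20638850-20639099, Glycam1 on the minus strand at chr7:136561300-136561549, and Wap on the minus strand at chr14:85719160-85719409.
Csn2: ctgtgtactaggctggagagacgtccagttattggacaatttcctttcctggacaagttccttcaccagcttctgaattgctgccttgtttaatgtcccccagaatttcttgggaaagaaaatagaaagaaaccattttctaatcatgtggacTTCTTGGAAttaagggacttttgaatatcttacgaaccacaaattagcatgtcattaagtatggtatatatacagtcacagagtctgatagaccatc
Csn1s1: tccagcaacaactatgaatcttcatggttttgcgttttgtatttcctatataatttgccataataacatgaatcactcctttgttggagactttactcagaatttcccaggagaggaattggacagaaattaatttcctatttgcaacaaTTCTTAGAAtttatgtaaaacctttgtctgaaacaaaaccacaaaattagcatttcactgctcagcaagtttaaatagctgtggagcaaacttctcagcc
Glycam1: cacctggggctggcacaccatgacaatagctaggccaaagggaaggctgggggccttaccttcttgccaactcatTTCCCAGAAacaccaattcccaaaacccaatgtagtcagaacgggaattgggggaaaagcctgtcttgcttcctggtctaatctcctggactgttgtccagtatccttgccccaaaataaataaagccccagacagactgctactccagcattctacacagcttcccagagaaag
Wap: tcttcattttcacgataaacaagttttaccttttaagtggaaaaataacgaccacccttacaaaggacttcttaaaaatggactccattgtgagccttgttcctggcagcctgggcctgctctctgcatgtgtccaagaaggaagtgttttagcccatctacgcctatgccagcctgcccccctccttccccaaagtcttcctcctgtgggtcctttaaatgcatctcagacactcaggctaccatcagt
In Csn2 the first base of the match lay 97 bases before the start and in Csn1s1 100 bases before it. Glycam1, which had the largest increase among the genes outside the score, had its match 175 bases before the start. Wap, Csn3 and Lalba had no match in this window, nor did Fabp3, Abcg2 or Pigr, which says only that these letters are not in these bases. A match was found in 7.67% of all promoters in the table, in 6.47% of the genes tested, in 6.90% of the genes higher in high arrays (35 of 507 with a promoter) and in 6.09% of the genes lower in high arrays (31 of 509). As a group, the genes that differed held the motif about as often as all genes tested.

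For the comparison of all other transcripts, the probe sets of the 5 genes were removed and the 21063 probe sets that reached 10 in all 31 rats were tested with limma on the log2 scale, with p adjusted by the method of Benjamini and Hochberg. The rats were put in order by genes measured on the same arrays, so each p describes an association with that order among these rats and not the effect of a treatment. At an adjusted p under 0.05, 872 probe sets (4.14% of those tested) were higher and 918 (4.36%) lower in high arrays, 8.5% in either direction. They stand for 620 genes that were higher and 638 that were lower, of 11206 tested. The differences of 70 probe sets in the first set and 43 in the second were over 2-fold. Every high array lay above every low array for 0.859% of probe sets, and below every low array for 0.375%. Leaving out the high array of 43 h gave 1316 higher and 1764 lower, and leaving out that of 59.8 h gave 590 lower.

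Glycam1, a mucin-like glycoprotein of milk that is secreted by the mammary epithelium, had the largest increase. Its intensity was 5268 to 16791 with a median of 11763 in high arrays and 38.4 to 1117 with a median of 94.2 in low arrays, a log2 difference of 6.11 (SE 0.68, adjusted p = 9.63e-05), or 69.1-fold. This stands beside 5.59 for Csn2 and 5.41 for Wap, which ordered the arrays. Prr27 encodes a proline-rich protein, and the gene lies between Csn3 and Csn1s2b on chromosome 14 in the RefSeq order. Its intensity was 6920 to 16628 with a median of 12937 in high arrays and 1696 to 5183 with a median of 3231 in low arrays, a log2 difference of 1.85 (SE 0.24, adjusted p = 0.000358). Both genes separated the groups completely.

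Abcg2, the transporter that concentrates riboflavin and drugs into milk, had a median of 311 (181 to 1092) in high arrays and of 87.7 (44.8 to 114) in low arrays, a log2 difference of 2.34 (SE 0.34, adjusted p = 0.000602). Car2, carbonic anhydrase 2, had a median of 451 (309 to 1679) in high arrays and of 116 (104 to 167) in low arrays, a log2 difference of 2.32 (SE 0.31, adjusted p = 0.000372), and its other probe set differed by 1.82. Pigr, the receptor that carries polymeric immunoglobulin across the epithelium, had a median of 115 (58.7 to 316) in high arrays and of 26.1 (16.5 to 42.8) in low arrays, a log2 difference of 2.28 (SE 0.28, adjusted p = 0.000247). The groups did not overlap for any of these genes. Fabp3, the fatty acid binding protein of heart and lactating mammary gland, was different. It had a median of 525 (123 to 4896) in high arrays and of 67.8 (53.8 to 153) in low arrays, a log2 difference of 2.98 (SE 0.70, adjusted p = 0.0134). Only 6 of 8 high arrays lay above the highest low array, and the rat of 43 h had the highest value of all high arrays.

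The remaining increases among the 10 largest were Lao1, an L-amino acid oxidase, with a log2 difference of 2.46 (SE 0.39, adjusted p = 0.00114), the annotated pseudogene Scgb1d2-ps1 with 2.45 (SE 0.34, adjusted p = 0.000432), Chrdl2, a secreted antagonist of bone morphogenetic proteins, with 1.82 (SE 0.36, adjusted p = 0.00552), and Gjb1, the gap junction protein connexin 32, with 1.62 (SE 0.19, adjusted p = 0.000119). Lao1 had a median of 89.5 (51.3 to 425) in high arrays and of 19.98 (11.8 to 33.2) in low arrays. Gjb1 had a median of 91.7 (49.7 to 143) in high arrays and of 27.95 (19.5 to 33.7) in low arrays. Chrdl2 reached 649 at 41.6 h and only 68.9 at 32.8 h, so the high arrays spanned a wider range among themselves than the difference between the groups. In all 4 genes no high array fell below the highest low array.

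**Figure D3:**
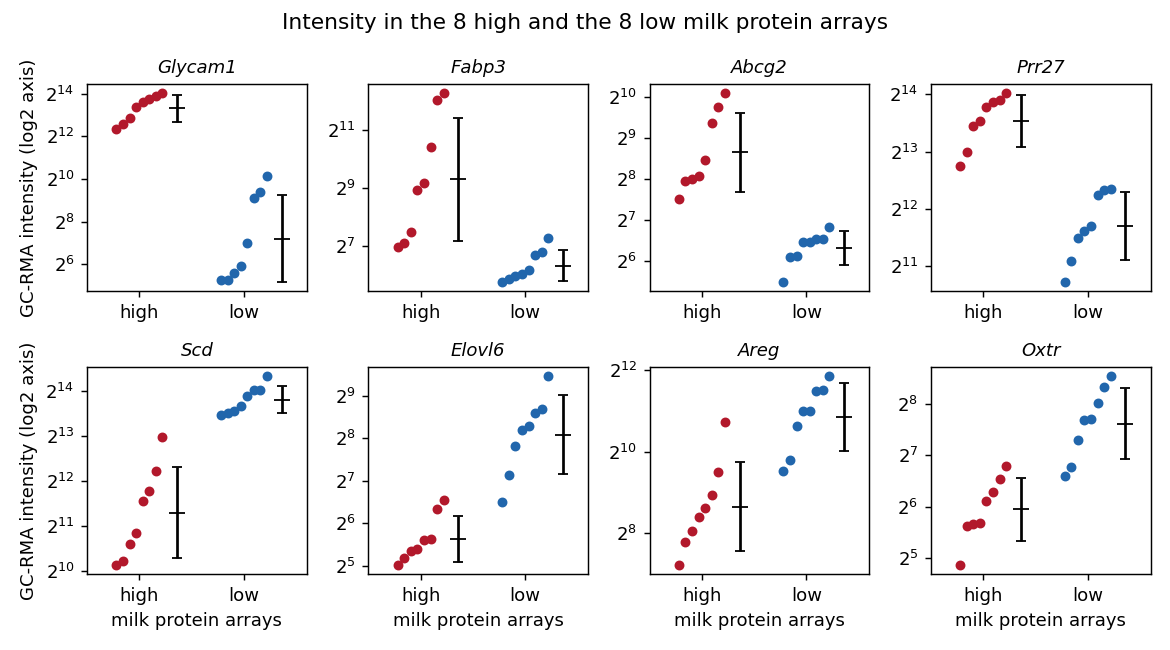
GC-RMA intensity (log2 axis) of 8 genes in the 8 high arrays (red, left) and the 8 low arrays (blue, right), with 1 point per rat sorted by value and, beside each group, the mean and SD of the log2 values drawn on the same axis. Glycam1, Abcg2, Prr27 and Scd separate the groups, whereas Fabp3, Elovl6, Areg and Oxtr overlap.

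Among the decreases, enzymes of fatty acid desaturation and elongation led. Scd, stearoyl-CoA desaturase, was at 1130 to 8111 with a median of 2427 in high arrays and at 11358 to 20639 with a median of 14076 in low arrays, a log2 difference of -2.52 (SE 0.34, adjusted p = 0.000395), or 5.72-fold lower. The highest of the high arrays was again that of 43 h. Elovl6, the elongase that makes stearate from palmitate, was at 32.5 to 93.4 with a median of 45.4 in high arrays and at 90.4 to 708 with a median of 302 in low arrays, a log2 difference of -2.45 (SE 0.35, adjusted p = 0.000536). Scd kept the groups apart, and Elovl6 did so but for 1 high array. Pnpla3, a lipase of lipid droplets, had a median of 31.9 (16.8 to 40.1) in high arrays and of 121 (50.3 to 374) in low arrays, a log2 difference of -2.22 (SE 0.35, adjusted p = 0.00118). Angptl8, a regulator of lipoprotein lipase that is made in fat and liver, had a median of 38.0 (21.9 to 82.4) in high arrays and of 145 (79.5 to 317) in low arrays, a log2 difference of -1.90 (SE 0.30, adjusted p = 0.00114). These genes all take part in lipid metabolism.

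Areg, amphiregulin, the growth factor that estrogen induces in the mammary epithelium, was at 149 to 1702 with a median of 365 in high arrays and at 740 to 3700 with a median of 2036 in low arrays, a log2 difference of -2.20 (SE 0.44, adjusted p = 0.00534). Oxtr, the oxytocin receptor of the myoepithelial cells that eject milk, was at 29.4 to 111 with a median of 60.7 in high arrays and at 97.1 to 371 with a median of 206 in low arrays, a log2 difference of -1.66 (SE 0.30, adjusted p = 0.00262). In each of the 2 genes 7 of 8 high arrays lay below the lowest low array. The remaining decreases were those of Gp2, a glycoprotein of secretory granule membranes, by -2.18 (SE 0.33, adjusted p = 0.000771), C5h8orf88, by -2.16 (SE 0.31, adjusted p = 0.000636), C6, a component of the complement membrane attack complex, by -1.88 (SE 0.39, adjusted p = 0.00664), and Msln, mesothelin, by -1.49 (SE 0.21, adjusted p = 0.000495). Gp2 and C5h8orf88 separated the groups, C6 and Msln did not.

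Days 1, 2 and 3 each held high and low arrays. For 13 of the 20 named genes the groups did not overlap, so the sign within a day was fixed by the choice of genes, and it was also the same on all 3 days for the 7 genes whose groups overlapped, which were chosen for their difference in these arrays. The sizes are given as a description. For Glycam1 the log2 difference was 7.91 on day 1 (1 high and 4 low arrays), 3.95 on day 2 (4 high and 1 low) and 2.98 on day 3 (3 high and 1 low). For Scd it was -1.98, -2.40 and -3.45 on the same days. With so few rats in a day these are values without a test. With the cycle day and the clock hour as covariates the comparison gave 854 probe sets higher and 1045 lower, and 617 of the 872 and 644 of the 918 were still called.

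Rats killed close together could lie at opposite ends of the order. The rats of 7.5 and 7 h were killed 0.5 h apart. In the rat of 7.5 h, a high array, Csn2 was at 15911, against 263 in the rat of 7 h, a low array, which is a 60.5-fold difference. Wap was at 14951 at 7.5 h and at 316 at 7 h, and Glycam1 at 13947 at 7.5 h and at 38.4 at 7 h. Another pair was 1.2 h apart, and Csn2 measured 11632 at 32.8 h and 790 at 31.6 h. A further pair was 1.5 h apart, and Csn2 measured 18131 at 59.8 h and 403 at 61.3 h. The keratin Krt8, which luminal epithelial cells share, was 1.12-fold higher at 7.5 h than at 7 h, 1.06-fold higher at 32.8 h than at 31.6 h and 1.64-fold higher at 59.8 h than at 61.3 h. For Krt19, another luminal keratin, the folds in the same pairs were 1.28, 1.39 and 2.37. For the adipocyte gene Adipoq the ratios of the high to the low array were 0.622, 0.762 and 0.613. The pairs were picked after their values were seen, and each is 1 rat against 1 rat.

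**Figure D4:**
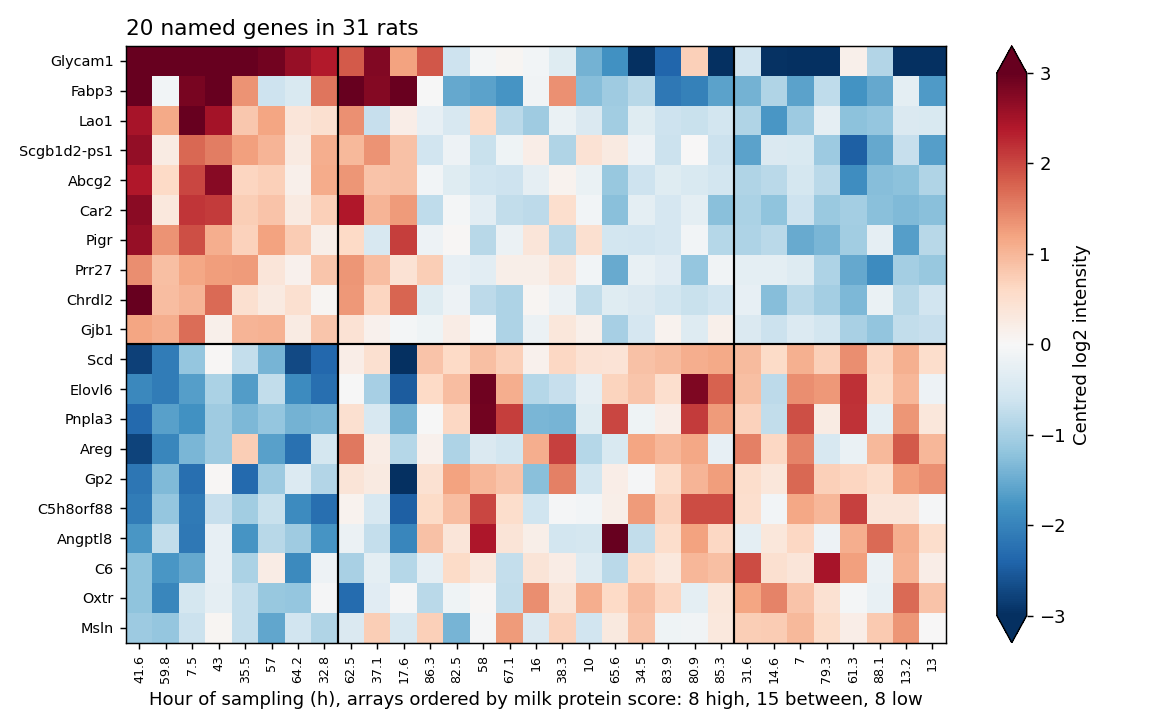
Centred log2 intensity (colour, drawn up to 3 above and below 0) of the 10 largest increases (upper rows) and the 10 largest decreases (lower rows) in 31 rats, ordered from the highest score on the left to the lowest on the right, with lines marking off the 8 high, 15 between and 8 low arrays. The rats of 62.5, 37.1 and 17.6 h, next in order after the high arrays, have Fabp3 and Car2 at levels like those of the high arrays.

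The 15 arrays between were not part of the comparison of high with low, and give the same measure in other rats. There the log2 intensity of each probe set was fitted against the score, whose range is narrower. At an adjusted p under 0.05 limma called 0 probe sets, and at an unadjusted p under 0.05 it gave 1181 rising (5.61%) and 609 falling (2.89%). Without the rat of 80.9 h 1 probe set rose. Of the probe sets higher in high arrays, 85.7% had a slope of the same sign in the 15 rats, as had 81.5% of those lower in high arrays, and the share over all probe sets tested was 56.8%. All 10 increases and all 10 decreases had a slope of the same sign. The slope passed an unadjusted p of 0.05 for 9 of 10 increases and for 3 of 10 decreases. For Glycam1 it was 2.43 on the log2 scale per unit of score (SE 0.41, unadjusted p = 1.61e-05) and for Fabp3 2.09 (SE 0.54, unadjusted p = 0.00133), and neither passed adjustment over all probe sets. For Scd it was -0.75 (unadjusted p = 0.057) and for Areg -0.31 (unadjusted p = 0.43).

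The gene lists described next were read by 1 probe set per gene, and the median log2 difference over all probe sets tested, against which each list's median is given, was 0.002. Each list's counts stand against 4.14% of all probe sets called higher and 4.36% called lower. Of 13 other milk proteins and milk fat globule genes tested, 8 rose, 0 fell and 5 did not pass, with a median log2 difference of 0.86. Besides Glycam1 and Pigr these were Muc1, the transmembrane mucin of the globule surface, Cel, the bile salt-stimulated lipase of milk, Folr1, a folate receptor, Plin2, the coat protein of lipid droplets, Mfge8, lactadherin, and Xdh, the oxidoreductase of the globule membrane. Muc1 had a median of 242 (145 to 640) in high arrays and of 84.5 (70.8 to 143) in low arrays, a log2 difference of 1.49 (adjusted p = 0.00304). Plin2 had a median of 4988 (3647 to 6470) in high arrays and of 2292 (2020 to 2643) in low arrays, a log2 difference of 1.11 (adjusted p = 2.5e-05), and its other probe set differed by -0.20. Xdh had a median of 9788 (8621 to 11343) in high arrays and of 6447 (4981 to 8067) in low arrays, a log2 difference of 0.57 (adjusted p = 0.000771). The groups did not overlap for any of these 3. Lpo and Spp1, which encode lactoperoxidase and osteopontin, did not pass, with log2 differences of 0.86 and 0.81.

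Of 12 transporters of secretory epithelium 5 rose and 1 fell, with a median of 0.50. Slc34a2, the phosphate cotransporter of the apical membrane, had a log2 difference of 1.46 (adjusted p = 0.020), Kcnn4, a calcium-activated potassium channel, of 1.27 (adjusted p = 0.00476), Atp2c2, a calcium pump of the secretory pathway, of 1.19 (adjusted p = 0.00534), and Slc12a2, a sodium, potassium and chloride cotransporter, of 0.38 (adjusted p = 0.0399). Slc1a5, a transporter of neutral amino acids, fell by 0.73 (adjusted p = 0.0246). Of 10 innate defence proteins 3 rose, namely Pigr, the complement component C3 with 1.37 (adjusted p = 0.00346), and the lipopolysaccharide binding protein Lbp with 0.64 (adjusted p = 0.0134), and the list's median was 0.49. Lcn2, lipocalin 2, was at 386 to 12327 in high arrays and at 3989 to 6960 in low arrays. The low arrays all lay inside the span of the high arrays, and the difference of 0.16 did not pass.

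Of 19 prolactin, STAT5 and alveolar regulators 2 rose, 2 fell and 15 did not pass, with a median of 0.12. Elf5 was at 1701 to 3082 with a median of 2188 in high arrays and at 784 to 1506 with a median of 1012 in low arrays, a log2 difference of 1.12 (SE 0.15, adjusted p = 0.000372), or 2.17-fold. It separated the groups. The nuclear factor Nfib differed by 0.40 (adjusted p = 0.00642). Ghr, the growth hormone receptor, fell by 0.86 (adjusted p = 0.000601), and Cav1, caveolin 1, which restrains Jak2 signalling in the mammary gland of mice, fell by 0.44 (adjusted p = 0.00163). Prlr, the prolactin receptor, differed by -0.22 (adjusted p = 0.425), Stat5a by 0.51 (adjusted p = 0.0912), Stat5b by 0.03, Jak2 by 0.13 and Cish, a target of STAT5, by 0.22, and none of these 5 passed. Stat5a was at 262 to 650 in high arrays and at 192 to 356 in low arrays, so the groups overlapped.

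The 24 genes of lactose, fatty acid and triglyceride synthesis divided, with 4 higher, 8 lower and 12 that did not pass, and a median of -0.35. Olah, the thioesterase that releases the medium-chain fatty acids of milk, had a median of 10133 (8382 to 13788) in high arrays and of 4495 (2581 to 7016) in low arrays, a log2 difference of 1.27 (adjusted p = 0.000682). Aldoc, an aldolase of glycolysis, had a median of 1115 (815 to 2124) in high arrays and of 451 (360 to 588) in low arrays, a log2 difference of 1.39 (adjusted p = 9.63e-05). Both separated the groups. With Fabp3 and Gpat4, a glycerol-3-phosphate acyltransferase with 0.34 (adjusted p = 0.0192), they made up the increases. Acaca, the enzyme of the first committed step of fatty acid synthesis, had a median of 1360 (1017 to 1751) in high arrays and of 3019 (1392 to 5064) in low arrays, a log2 difference of -1.15 (adjusted p = 0.00237). The other decreases besides Scd and Elovl6 were those of Insig1, a sterol sensor, by 0.97, Gpam, the mitochondrial acyltransferase, by 0.90, Acss2, an acetyl-CoA synthetase, by 0.80, Lpin1, a phosphatidate phosphatase, by 0.62, and Thrsp, a regulator of lipogenesis, by 0.57. Fasn, fatty acid synthase, had a difference of -0.58 and Srebf1 of 0.53, and neither passed. B4galt1, the catalytic partner of Lalba in lactose synthase, was at 232 to 423 in high arrays and at 234 to 331 in low arrays, a difference of -0.01.

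Of 21 genes of protein secretion in the endoplasmic reticulum 0 rose and 0 fell, with differences from -0.35 to 0.35 and a median of -0.01. The chaperone Hspa5 was at 5119 to 7845 in high arrays and at 5108 to 7401 in low arrays. Xbp1, the transcription factor of secretory cells, was at 4471 to 7216 in high arrays and at 3903 to 6101 in low arrays. Genes of the mitotic cycle also showed 0 calls among 18 tested, with a median of 0.04. Mki67 was at 29.5 to 500 in high arrays and at 40.4 to 211 in low arrays, and the rat of 43 h held the highest value. Of 19 DNA replication genes 1 rose, Mcm7 with 0.28 (adjusted p = 0.0243), a share of 5.26% beside the 4.14% of all probe sets. Of 15 circadian clock genes 0 passed, with a median of -0.07. Per2 was at 86.9 to 1264 in high arrays and at 150 to 587 in low arrays, and Bmal1 at 13.4 to 263 in high arrays and at 24.8 to 265 in low arrays. For both genes the groups overlapped over most of their spans. In the 15 arrays between, the slope on the score was positive for 20 of the 21 secretion genes. It was positive there for all 18 mitotic and all 19 replication genes, and for 9 of the 15 clock genes. The median slope over all probe sets tested was 0.004 in these rats. The lists were not tested as sets, so the 0 calls do not show that these genes are unrelated to the score.

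**Figure D5:**
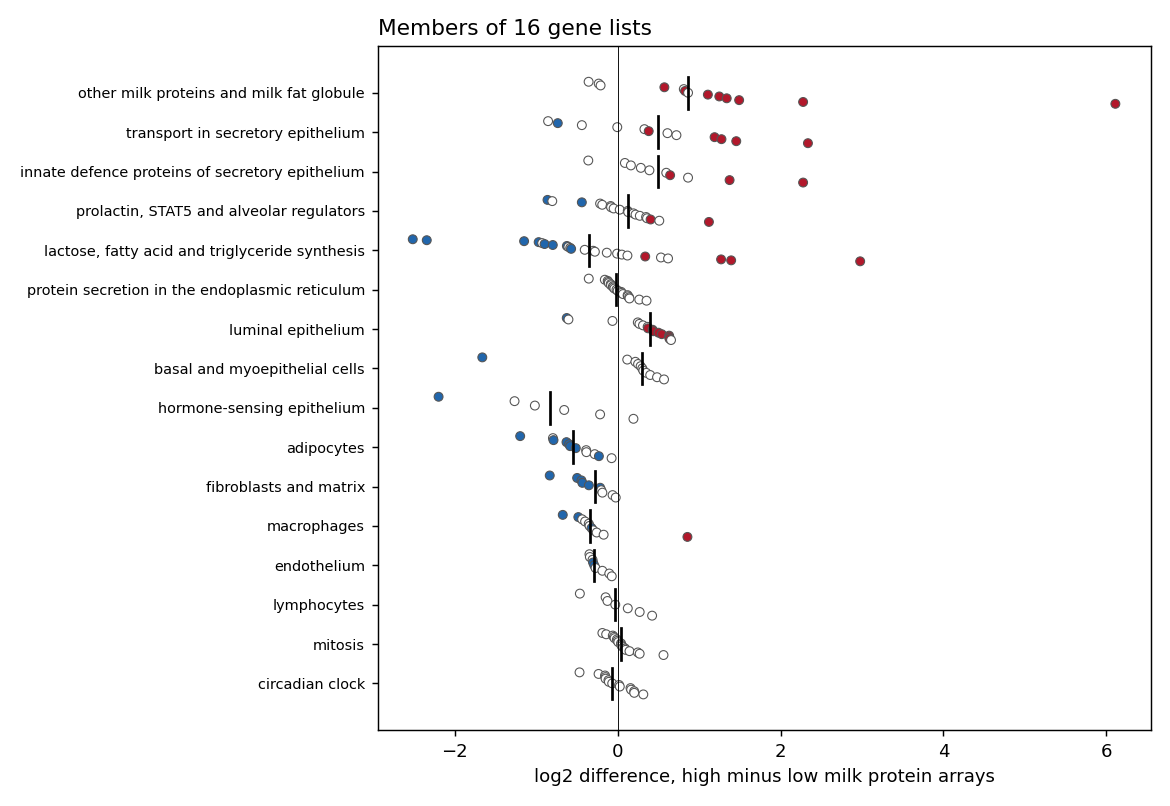
Log2 difference, high minus low arrays (horizontal axis), of the members of 16 gene lists, with 1 point per gene, filled red where the gene was higher and blue where it was lower at an adjusted p under 0.05 and open where it did not pass, and a bar at each list's median. Milk proteins and transporters lie mostly to the right, adipocyte and matrix genes to the left, and the secretion list lies around 0.

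Markers of the cell types in the gland moved with the groups, and in whole tissue fewer cells of a type and less RNA per cell cannot be told apart. Of 16 luminal epithelial genes tested 8 rose and 1 fell, with a median of 0.40. Krt19 had a median of 2741 (2376 to 3550) in high arrays and of 1882 (1372 to 2573) in low arrays, a log2 difference of 0.63 (adjusted p = 0.0055), Cldn3 of 0.63 and Cldn4 of 0.64, and Krt8 of 0.43 (adjusted p = 0.0495). These groups overlapped. Krt7, another luminal keratin, fell by 0.62 (adjusted p = 0.00805). The summed intensity of the list was 19810 to 30977 in high arrays and 16355 to 20979 in low arrays. Of 11 basal and myoepithelial genes 0 rose and Oxtr alone fell. The median of this list was 0.30, and Krt5 differed by 0.48 and Acta2 by 0.28 without passing. The summed intensity of these genes was 11417 to 18932 in high arrays and 10505 to 12533 in low arrays. Of 6 hormone-sensing genes tested Areg alone passed. Pgr, the progesterone receptor, was at 34.0 to 276 in high arrays and at 47.6 to 433 in low arrays, a log2 difference of -1.27 (adjusted p = 0.161).

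Adipocyte genes moved the other way. Of 12 tested 7 fell, 0 rose and 5 did not pass, all 12 differences were negative, and the median was -0.55. Adipoq, adiponectin, was at 4122 to 6526 with a median of 4290 in high arrays and at 5968 to 7690 with a median of 6888 in low arrays, a log2 difference of -0.60 (SE 0.09, adjusted p = 0.000817). Lep, leptin, was at 43.4 to 229 in high arrays and at 131 to 299 in low arrays, a log2 difference of -1.20 (adjusted p = 0.0202). In both genes most high arrays lay below the lowest low array. Without the rat of 43 h 11 of the 12 fell, while the count called lower over all 21063 probe sets went from 918 to 1764. The summed intensity of the list was 58719 to 76326 in high arrays and 68024 to 81859 in low arrays, and the rat of 43 h gave the highest of the high arrays.

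In the other cell types, 6 of 10 fibroblast and matrix genes fell, with a median of -0.28 and the largest difference in Sparc at -0.83 (adjusted p = 0.00137), and their summed intensity was 83312 to 120928 in high arrays and 104275 to 141474 in low arrays. Of 11 macrophage genes 3 fell and Cd14, which epithelial cells also express, rose by 0.86 (adjusted p = 0.015). The macrophage median was -0.35, and the sum was 10870 to 15976 in high arrays and 10034 to 14829 in low arrays. This sum includes Cd14, which was at 2608 to 9293 in high arrays and at 2325 to 3992 in low arrays. The other 10 macrophage genes all had negative differences. Without the rat of 43 h 7 macrophage genes fell. That fit called 1764 of all 21063 probe sets lower, against 918 with the rat. Pecam1 and Kdr fell among 9 endothelial genes, whose sum was 3958 to 5551 in high arrays and 4587 to 5974 in low arrays. Of 7 lymphocyte, 4 plasma cell and 5 skeletal muscle genes 0 passed. Muscle was uneven within both groups, and Acta1, skeletal actin, was at 436 to 13094 in high arrays and at 252 to 15148 in low arrays. Of 9 genes of the acute phase and involution Cd14 alone passed.

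The marker levels were also added to the fit as covariates, which describes how the calls changed and tests no cause. The mean centred log2 intensity of Krt8, Krt18, Krt19, Epcam and Cdh1 was -0.22 to 0.58 in high arrays and -0.48 to -0.12 in low arrays. That of Adipoq, Plin1, Lipe, Cidec and Lep was -0.63 to 0.27 in high arrays and 0.03 to 0.53 in low arrays. On the adipocyte mean 7 high arrays, at -0.63 to -0.17, lay below every low array. Only the high array of 43 h lay among the low arrays. This covariate thus nearly repeats the grouping, and the fit with it leans on 1 rat. Over the 31 arrays the epithelial mean had a Pearson's r of 0.61 with the score and the adipocyte mean one of -0.65, as descriptions of arrays that share these RNAs. With the epithelial mean as a covariate 215 probe sets were higher and 95 lower (1.47% in either direction), and 17 of the 20 named genes passed, Areg, C6 and Oxtr being the exceptions, with log2 differences of -1.97, -1.11 and -1.12. With the adipocyte mean 122 were higher and 34 lower (0.741%), and 8 of the 20 passed, namely Glycam1, Fabp3, Scgb1d2-ps1, Abcg2, Car2, Prr27, Elovl6 and C5h8orf88. The other 12 kept their sign, and the difference was larger than without the covariate in 3 of them and smaller in 9. Those larger were Lao1 at 2.84, Chrdl2 at 2.43 and Pnpla3 at -2.36, and among the smaller were Pigr at 2.15, Areg at -1.95 and Oxtr at -0.84. Glycam1 differed by 6.35 with the epithelial mean (adjusted p = 0.00352) and by 5.77 with the adipocyte mean (adjusted p = 0.0382). Elf5 passed under both, with an adjusted p of 0.0182 and 0.0272. In its list of regulators 1 gene was called lower with the epithelial and 0 with the adipocyte mean. Ghr and Cav1 thus did not pass with the adipocyte mean. Scd differed by -2.08 with the epithelial mean (adjusted p = 0.028) and by -2.14 with the adipocyte mean (adjusted p = 0.083). Of the 13 milk protein and globule genes tested, 8 were called higher with the epithelial and 6 with the adipocyte mean. Other lists kept fewer calls. Of the 24 lipid and lactose synthesis genes 2 were called lower with the epithelial and 1 with the adipocyte mean, against 8 without. With either mean 0 luminal genes were called higher, against 8, and 0 matrix genes lower, against 6. The epithelial mean holds luminal genes itself. Of 76 genes, the 20 named and 56 other list members called, 31 passed with the epithelial and 18 with the adipocyte mean.

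The rat of 43 h stood apart from the other high arrays. Its adipocyte mean was 0.27, against -0.63 to -0.17 in the other 7, and its epithelial mean of -0.22 was the lowest of the 8. The summed intensity of its 18 mitotic genes was 4348, the highest of the high arrays, whose median was 938. limma's array weights gave it 0.316, the lowest of the 16 arrays. All 20 named genes passed without it, with Glycam1 at 6.06 and Scd at -2.76.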

How the data were processed

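The intensity values deposited by the authors are on a linear scale. They came from the scanned arrays through GC-RMA, a background correction that uses probe sequence, followed by normalization between arrays (no GCRMA version is named in the sources used here). They ran from 2.22 to 37317, with array medians of 50.0 to 54.7 in high arrays and 51.1 to 53.1 in low arrays. The number of arrays, 1 rat each, limits the precision, and p-values measure the spread between these rats. No scan batch was known. Of 31099 probe sets, 57 were controls, and 20832 had a single symbol in the platform annotation, of which 20764 were matched to GRCr8. In the lists a gene was read by its probe set of highest mean log2. Named genes are those of the score, the 10 that increased and the 10 that decreased most among those past the threshold (per gene the probe set with the largest change) and list members. The groups, genes and lists were chosen with earlier results of these data known. Tests used limma 3.58.1 in R 4.3.3, and an exact permutation test in scipy 1.17.1 for clock hour. In simulated data for 21063 probe sets, limma recovered 68.7% of log2 differences of 0.5, 98.5% of 1 and 100% of 2, with 3.3% of calls false. The simulated noise was independent between probe sets, few probe sets were changed, and the groups were fixed beforehand. The real groups were chosen by transcripts on the same arrays, so these shares are not estimates for the calls reported here. Alternatives covered group size, genes of the score, covariates, filters, normalization, variance models and each array left out. Promoter sequences are RefSeq's, from GRCr8. The spline statistics of the study were not used here.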

Additional observations from a re-analysis of the deposited data

Results flagged for a closer look

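The 162 groups of 8 arrays examined were 2 for each gene of the score, named gene and list member that passed. In 3 of them 1 array was set apart from the other 7 by a gap on the log2 scale. That gap, set against the log2 range of the group, was larger than Dixon's 95% critical value. The intensities given below are linear. Chance sets apart about 1 in 20 groups. In high arrays Adipoq was highest at 43 h, at 6525.9, with the next array at 4921.2. Col3a1, a fibrillar collagen, was lowest in high arrays at 7.5 h, at 19768.5, with the next at 23321.8. Slc2a4, the insulin-responsive glucose transporter, was lowest in low arrays at 14.6 h, at 134.6, with the next at 248.8.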

How the results depend on the processing

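No paired analysis was possible because the labels carry no replicate numbers and each rat had its own hour. Against 872 probe sets higher and 918 lower, the luminal epithelial covariate gave 215 and 95, the adipocyte covariate 122 and 34, and array weights 1722 and 2196. The 6 highest against the 6 lowest arrays gave 595 lower, and a score without Wap 597 lower. Leaving out each array in turn gave 641 to 1316 higher and 590 to 1764 lower, with the upper ends both without the rat of 43 h, the count of 641 without that of 79.3 h and the count of 590 without that of 59.8 h. Of the 20 named genes, 8 passed with the adipocyte and 17 with the epithelial covariate. All that did not pass kept their sign, and of the 12 lost with the adipocyte covariate 3 had a larger and 9 a smaller difference than without it. A filter at an intensity of 50 on all arrays left 7 of them to test, all of which passed. In the 16 runs without 1 array all 20 passed. Lep differed by 0.28 with the adipocyte covariate, which holds Lep itself. In the arrays between, 0 to 1 probe sets rose and 0 fell without each rat in turn, the 1 appearing without that of 80.9 h, and the epithelial covariate, added after seeing the data, also gave 0. The difference in clock hour was 0.26 to 1.90 h without each array in turn. In the other settings tried, counts stayed within 1.5 times of the main ones and all 20 genes passed. The 20 genes were chosen for their difference in these arrays, and most settings used the same arrays again. Their passing was thus largely fixed by the choice. A score without Lalba gave the same groups, and one from all probe sets was the same score, since each gene had 1. No cause of these shifts was tested. The lowest intensity kept was 10, so genes near background were not measured.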

Other observations

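The array of 40 h, which the study set aside because it looked corrupted, scored -0.73, the 22nd of 32 in order from the highest. Its Csn2 intensity was 831, its Wap intensity 491 and its Glycam1 intensity 528, which are above 9, 10 and 10 of the 31 other arrays. Fabp3, at 404, lay above 22 of the 31, Scd, at 13981, above 21, and Areg, at 3508, above 29. With this array scored with the others, 870 probe sets were higher and 917 lower, and the groups held the same rats.

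Around the casein genes on chromosome 14, in the RefSeq order of GRCr8, few neighbours were measured. Among 25 genes from Amtn to Ugt2b, Prr27 and Sult1d1, a sulfotransferase, had a probe set that was tested. Sult1d1 differed by 0.80 (limma adjusted p = 0.129). Oprpn, Smr3b, Smr3a and Cabs1, which lie on the far side of Csn3, had median intensities of 4.02 to 6.08 over the 31 arrays, below the minimum of 10. Csn1s2a and Csn1s2b had no named probe set and are not analysed here. Their promoters hold TTCNNNGAA with its first base 102 and 100 bases before the start, and that of Prr27 holds it 25 bases before the start.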
